A study of Mus musculus with 45 samples.

Results

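The data described here are 6 of the 45 RNA-seq libraries of a study of mouse embryonic stem cells (mESCs) leaving naive pluripotency. They are the day 1 and day 2 libraries of cells that started from SL, a medium with serum and the cytokine LIF. Male E14tg2a mESCs (129/Ola background, wild type), kept in SL or in 2iL, a medium with 2 kinase inhibitors and LIF, were differentiated along 3 courses. In the EB course the cells formed embryoid bodies (EBs) in suspension in serum medium without LIF. In the FA course, labelled EpiSC, they grew on gelatin in serum-free N2B27 medium with the growth factors Fgf2 and Activin A. In the Neural course they grew on gelatin in N2B27 alone. Each course gave 1 library at day 1 and 1 at day 2, so 3 libraries were compared with 3, paired by course, and no day of a course was repeated. All the libraries come from 1 cell line, and the p-values of day 2 against day 1 therefore measure how far 3 different protocols moved together, not the spread of repeated cultures.

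Naive pluripotent stem cells (nPSCs) correspond to the epiblast before implantation and are held in that state by a network of transcription factors, among them Nanog, Esrrb, Klf4 and Tfcp2l1. When LIF is withdrawn the network is switched off, and the cells pass through a formative state, marked by Fgf5, Pou3f1 and the de novo DNA methyltransferase Dnmt3b, before they respond to germ layer signals. Day 1 to day 2 spans that passage in mESC cultures.

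The 6 libraries held between 15101710 and 37071102 counted reads, and the EB library of day 2 was the deepest. Levels are given as CPM, read counts scaled to the size of the library, always in the order EB, FA and Neural, and 3 counts corresponded to between 0.081 and 0.199 CPM. Fold changes are log2 values, day 2 minus day 1, from edgeR's quasi-likelihood test with the course as a block, and a gene was called at an adjusted p of 0.05. CPM values rise with transcript length, so levels are compared within a gene only. In bulk RNA, fewer cells of a type and less RNA per cell cannot be told apart. Pou5f1 (Oct4), which marks pluripotent cells, stood at 646, 647 and 602 CPM at day 1 and at 473, 445 and 346 CPM at day 2, so its transcript was abundant on both days in every course.

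Of 14183 genes tested, 4194 changed from day 1 to day 2, which is 29.6%. Of these, 2162 genes (15.2%) rose and 2032 (14.3%) fell. All but 3 of them, 4191 genes, moved in the same direction in all 3 courses. The test with the course as a block favours genes whose courses move alike, so this agreement is largely built into the calls. For 3520 of the called genes the 3 libraries of day 1 did not overlap with the 3 of day 2. Over all genes tested, called or not, 5421 (38.2%) had libraries that did not overlap. Most changes were small. The median was 0.73 for genes that rose and -0.70 for those that fell, 789 genes rose and 705 fell by at least 2-fold, and 41 rose and 34 fell by at least 8-fold. The day 1.5 libraries were not used in the test. Their mean lay between the means of day 1 and day 2 for 2096 of the 2162 genes that rose and for 1971 of the 2032 that fell. Genes called because day 1 and day 2 lie apart leave room for day 1.5 between them. This outcome was therefore largely built into the calls. At day 3 the mean stood above that of day 2 for 1466 of the risen genes and below it for 1370 of the fallen genes. The shares over all genes tested were not counted for day 1.5 or day 3, so nothing further is read from these counts. The count of calls rested on the pairs used. It was 6476 without the EB pair, 1157 without the FA pair and 1548 without the Neural pair, and 2188 without the course as a block. The same was seen gene by gene: of 167 called genes that were followed under each alternative, 70 kept their call under all of them, 65 lost it without the FA pair, 50 without the Neural pair, 64 without the block and 0 without the EB pair. Where 1 of these 167 genes is described below and lost its call without the FA or the Neural pair, this is stated. Other called genes described below, such as Nodal and Socs3, were not followed in this way. For them the absence of such a statement does not mean that the call held. In some lists the share of members called in either direction, between 20% and 35.7%, was not far from the 29.6% of all genes. They were the extraembryonic endoderm, fibroblast and feeder, Fgf and ERK, Wnt, BMP, retinoic acid, immediate early and hypoxia lists. The G1 phase, matrix, Lin28 and let-7, Hox, ribosomal protein and X-linked lists were the others. The 2 directions were uneven in several, among them 25 rises and 3 falls of 83 ribosomal protein genes and 5 rises and 0 falls of 14 Lin28 and let-7 genes. Nothing about these lists as a whole is read from their counts. The counts of the other lists below stand beside the 15.2% of all genes that rose and the 14.3% that fell.

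Rises and falls were ranked by log2 fold change among called genes that moved in the same direction in all 3 courses. A mean of 5 CPM on the higher day was also required. The 12 largest rises were those of Serpinf1, Kif1a, Pde4b, Fat3, Pdzrn3, Fndc3c1, Afp, Miat, Pcdh18, Greb1, Lhx1 and Mfsd2a. Their log2 fold changes ran from 2.81 to 3.64. Kif1a encodes a kinesin motor that carries synaptic vesicle precursors along axons. It went from 5.44, 5.33 and 4.68 CPM at day 1 to 127, 50.4 and 37.4 CPM at day 2, a log2 fold change of 3.62 ± 0.30 SE with an edgeR adjusted p of 0.00168. All 3 courses rose, and the EB library of day 2 stood highest. Serpinf1, which encodes the secreted antiangiogenic protein PEDF, went from 0.245, 0.586 and 0.446 to 1.04, 8.71 and 7.56 CPM (3.64 ± 0.38 SE, adjusted p = 0.00282), and here the EB library of day 2 stood lowest. Fndc3c1, an X-linked gene, rose to a similar level in all courses, from 5.99, 4.69 and 4.79 to 40.1, 48.9 and 45 CPM (3.11 ± 0.15 SE, adjusted p = 0.00069). Pde4b, a phosphodiesterase that degrades cAMP, went from 0.612, 0.821 and 0.279 to 7.18, 7.51 and 5.63 CPM. Fat3, an atypical cadherin, went from 0.673, 1.47 and 1.11 to 7.07, 12.8 and 12.4 CPM, and Pcdh18, a protocadherin, from 0.734, 0.41 and 0.78 to 3.2, 4.92 and 7.17 CPM. The long noncoding RNA Miat went from 3.67, 2.29 and 3.07 to 38.1, 15.4 and 23.3 CPM. Mfsd2a, a transporter of lysophosphatidylcholine that carries omega-3 fatty acids, went from 0.917, 0.997 and 1.003 to 2.67, 12 and 8.33 CPM. In these genes every day 2 library lay above every day 1 library. Afp, the serum protein of yolk sac and fetal liver, was the least even of the 12. It went from 0.55, 0.821 and 0.557 to 17.4, 3.79 and 1.1 CPM (3.04 ± 0.70 SE, adjusted p = 0.026), its EB library stood far above the other 2, and it was not called without the FA pair, without the block or with all SL libraries in the fit.

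Among the 12 largest falls were those of Inhbb, Catip, Mras, Slc11a1, Jam2, H2-M5, Prdm14, Gm7325, Calcoco2 and Myh13, with log2 fold changes from -4.53 to -3.18. Inhbb encodes the beta B subunit of inhibins and activins. It fell from 9.66, 21.2 and 24.1 CPM to 0.534, 0.931 and 0.772 CPM (-4.53 ± 0.20 SE, adjusted p = 0.000608). Jam2, a junctional adhesion molecule, had the smallest adjusted p of these 22 genes. It fell from 52.8, 82.4 and 77.7 to 4.54, 6.78 and 6.56 CPM (-3.57 ± 0.08 SE, adjusted p = 0.000249), and the 3 courses moved by -3.51, -3.58 and -3.54 on the scale of log2(CPM + 0.1). Mras, a Ras family GTPase, fell from 6.91, 12.9 and 17.1 to 0.694, 0.532 and 1.43 CPM. The autophagy receptor Calcoco2 was uneven between courses on both days, at 18.7, 67.6 and 89.5 CPM and then at 2.54, 5.39 and 7.83 CPM, but each course fell by a similar amount, -2.84, -3.62 and -3.50. Gm7325, which encodes the cell fusion protein myomixer, fell from 14.9, 26.1 and 25.4 to 1.71, 2.33 and 1.76 CPM. Of the 22 genes, 21 kept their call under every alternative processing tried, and Afp was the exception. They were chosen for large changes shared by all 3 courses, which favours this outcome. Among all 167 genes followed, 70 kept their call.

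**Figure D1:**
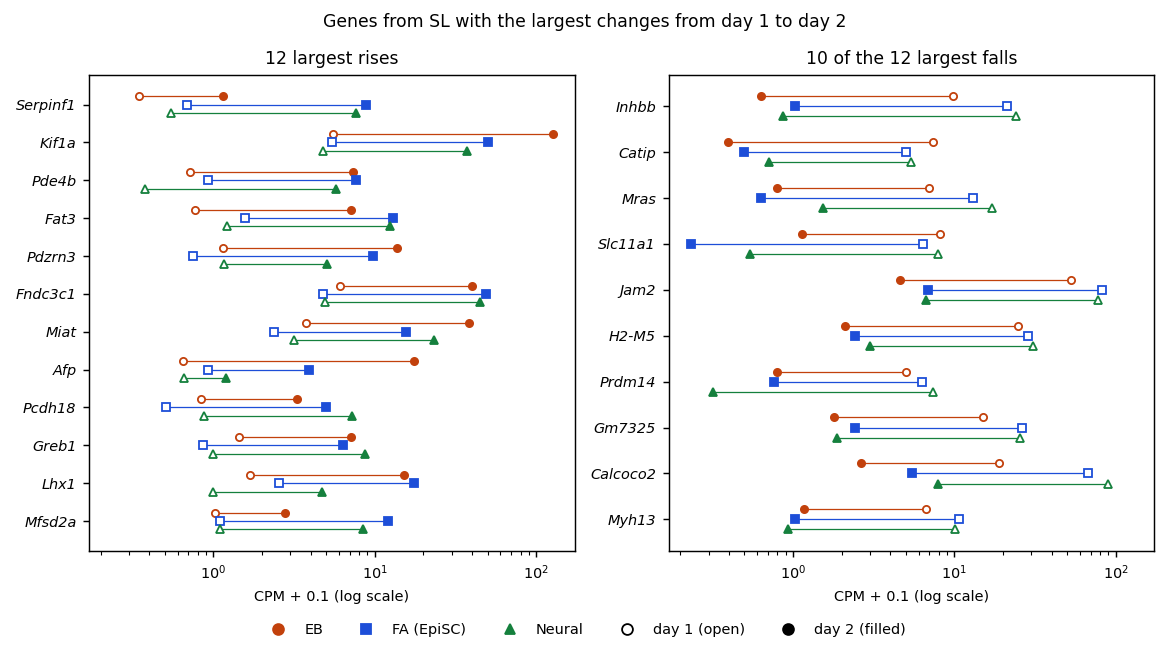
Level of the 12 genes with the largest rises (left) and 10 of the 12 with the largest falls (right) in each of the 6 libraries, as CPM + 0.1 on a log scale, with open marks for day 1, filled marks for day 2 and 1 colour and mark per course. The genes were chosen among those that moved in the same direction in all 3 courses. Their log2 fold changes are 2.81 to 3.64 on the left and -3.18 to -4.53 on the right.

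Of 26 genes of naive pluripotency, 24 fell and none rose, with a median log2 fold change of -1.98 against 0.004 over all genes tested. Prdm14, a PR domain regulator that keeps DNA methylation low in nPSCs, fell from 4.95, 6.21 and 7.3 to 0.694, 0.665 and 0.221 CPM (-3.46 ± 0.40 SE, adjusted p = 0.00353). Nr0b1 (Dax1), an orphan nuclear receptor, fell from 78.1, 56 and 58.6 to 19.2, 6.58 and 3.92 CPM. Esrrb, the nuclear receptor at the core of the network, fell from 182, 173 and 194 to 50.8, 15.7 and 19.8 CPM (-2.82 ± 0.33 SE, adjusted p = 0.00375). The EB library of day 2 kept the highest level of both receptors. Zfp42 (Rex1), the usual reporter of the naive state, fell evenly, from 230.2, 221 and 256 to 41.8, 32 and 39 CPM (-2.65 ± 0.08 SE, adjusted p = 0.000453). Tfcp2l1 fell from 154, 170.1 and 182 to 34.6, 23.7 and 27 CPM and Klf4 from 14, 14.8 and 19.5 to 2.75, 3.06 and 4.03 CPM. Nanog was already at 140.2, 192 and 180.5 CPM at day 1, against 608 CPM in the 1 SL library of day 0, and stood at 68, 60.7 and 42.2 CPM at day 2 (-1.59 ± 0.19 SE, adjusted p = 0.00394). The smaller falls included Klf2, from 19.6, 22.4 and 24.4 to 7.82, 7.38 and 16.7 CPM (-1.13 ± 0.21 SE, adjusted p = 0.014). The 2 members not called were Dppa3 (Stella), with a log2 fold change of -0.59 and an adjusted p of 0.215, and Gbx2, whose courses went in opposite directions and which is described with the courses below. The call of Klf2 was lost without the FA pair.

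The factors of pluripotency that are shared with the primed state moved less. Of 12 such genes, 7 fell and 2 rose, with a median of -0.30. Pou5f1 fell by 0.60 on the log2 scale (adjusted p = 0.00537) and Sox2 from 211, 154 and 169.8 to 161, 74.9 and 106 CPM (-0.70 ± 0.12 SE, adjusted p = 0.0116). The 2 that rose were Lin28a, the RNA-binding protein that blocks let-7 maturation, from 368, 392 and 403 to 535, 547 and 769.9 CPM, and Tead2, a partner of the Hippo coactivator Yap, from 82.1, 89.6 and 94.7 to 151, 146 and 131 CPM. Of 11 genes of the LIF pathway and its targets, 8 fell and none rose. The LIF receptor gene Lifr fell from 192, 147 and 171 to 63.1, 36.2 and 49.9 CPM (-1.79 ± 0.09 SE, adjusted p = 0.00069), its signalling partner Il6st by a log2 value of -0.59, and Bcl3, a Stat3 target, from 2.94, 1.99 and 2.01 to 0.934, 0.333 and 0.441 CPM. Socs3, the feedback inhibitor, fell from 5.99, 13.1 and 11 to 1.98, 5.19 and 7.83 CPM (-1.11 ± 0.24 SE, adjusted p = 0.0223). Among 8 regulators of primordial germ cells, 4 fell and none rose. They were Prdm14 and the nuclear receptor Nr5a2, which is also on the naive list, Tfap2c at -1.07 and Dnd1 at -0.78. The calls of Tfap2c and Dnd1 were lost when either the FA or the Neural pair was left out, the call of Bcl3 was lost without the FA pair, and the call of Sox2 was lost without the Neural pair.

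**Figure D2:**
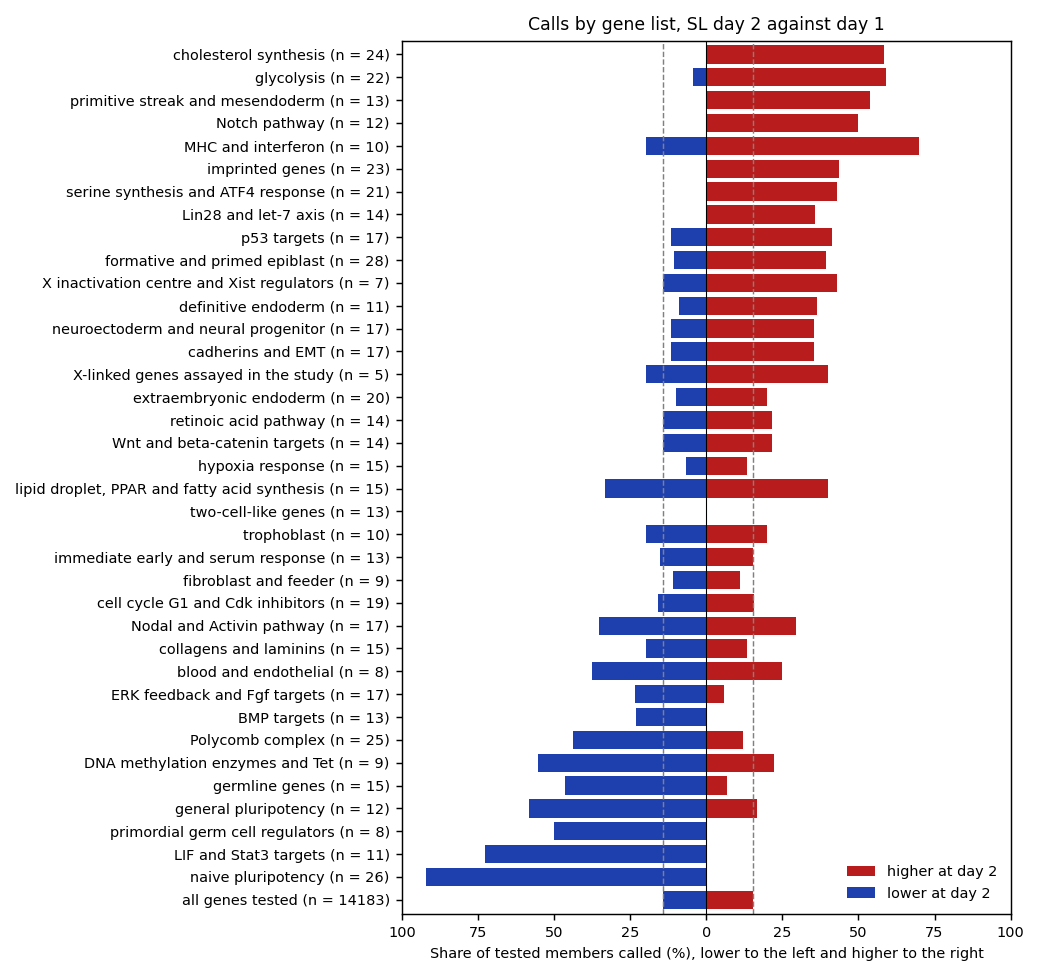
Share of the tested members of each of 37 gene lists, and of all genes tested, that were called lower (bars to the left) or higher (bars to the right) at day 2, in percent, with the number tested beside each name. The dashed lines mark the shares of all genes, 14.3% lower and 15.2% higher. All genes tested form the bottom row. The naive pluripotency list lies directly above it with 24 of 26 lower, and the cholesterol synthesis list at the top with 14 of 24 higher.

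Of 28 genes of the formative and primed epiblast, 11 rose and 3 fell, with a median of 0.80. Fgf5, the classical ligand of the postimplantation epiblast, went from 11.9, 7.92 and 2.01 to 54, 24.3 and 4.74 CPM (1.77 ± 0.18 SE, adjusted p = 0.00274). The order of the courses was the same on both days, with EBs highest and the Neural course lowest. Pou3f1 (Oct6) rose from 59.6, 31 and 25 to 127, 92.6 and 78.5 CPM (1.44 ± 0.12 SE, adjusted p = 0.00181). Pim2, an X-linked serine/threonine kinase gene, rose by a similar amount in each course, from 58.7, 45.3 and 36.7 to 245, 212 and 204 CPM (2.25 ± 0.09 SE, adjusted p = 0.000597). Sall2 rose from 23.9, 20.8 and 20.3 to 65.8, 44.6 and 49.97 CPM and Sox3, the X-linked SoxB1 factor, from 2.14, 4.69 and 5.13 to 8.57, 11.8 and 13 CPM. Cer1, a secreted inhibitor of Nodal, BMP and Wnt, had the largest fitted value of all called genes, 6.30, at low levels. It had 2 reads over the 3 libraries of day 1 and 238 over those of day 2, a ratio of 86.5 after scaling by depth with an exact interval of 23.7 to 718 (95%, counting error only). Its day 2 levels were 3.2, 6.98 and 0.717 CPM. The members that fell were Nodal, Etv4 and the epithelial factor Grhl2 (-0.63). Otx2, which directs the naive to formative transition, was not called, and its courses split. It stood at 61, 28.9 and 28.5 CPM at day 1 and at 106, 19.7 and 14.3 CPM at day 2, up in EBs and down in the adherent courses. The Neural pair was needed for the call of Etv4.

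Dnmt3b, which writes DNA methylation, rose, while Tet1 and Tet2, whose products oxidise it, fell. Dnmt3b rose in every course, from 1011, 467 and 414 to 2553, 997 and 928 CPM (1.20 ± 0.07 SE, adjusted p = 0.000855). Tet2 fell from 245, 327 and 339.5 to 39, 57.3 and 91 CPM (-2.35 ± 0.15 SE, adjusted p = 0.00104) and Tet1 from 976, 796 and 743 to 469, 311 and 290.1 CPM (-1.26 ± 0.08 SE, adjusted p = 0.000964). The Tet proteins are dioxygenases that oxidise 5-methylcytosine. Tet3, at 0.70, and Dnmt3a, at 0.02, were not called. Dnmt3l, the catalytically inactive cofactor of the de novo enzymes, fell from 490.3, 379.6 and 339 to 187, 258 and 265 CPM (-0.77 ± 0.20 SE, adjusted p = 0.0358), a call that DESeq2 did not make. The maintenance pair Dnmt1 (-0.19) and Uhrf1 (-0.27) fell slightly, and the glycosylase Tdg rose (0.54). In all, 2 of 9 rose and 5 fell. The call of Dnmt3l was lost when either the FA or the Neural pair was left out.

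**Figure D3:**
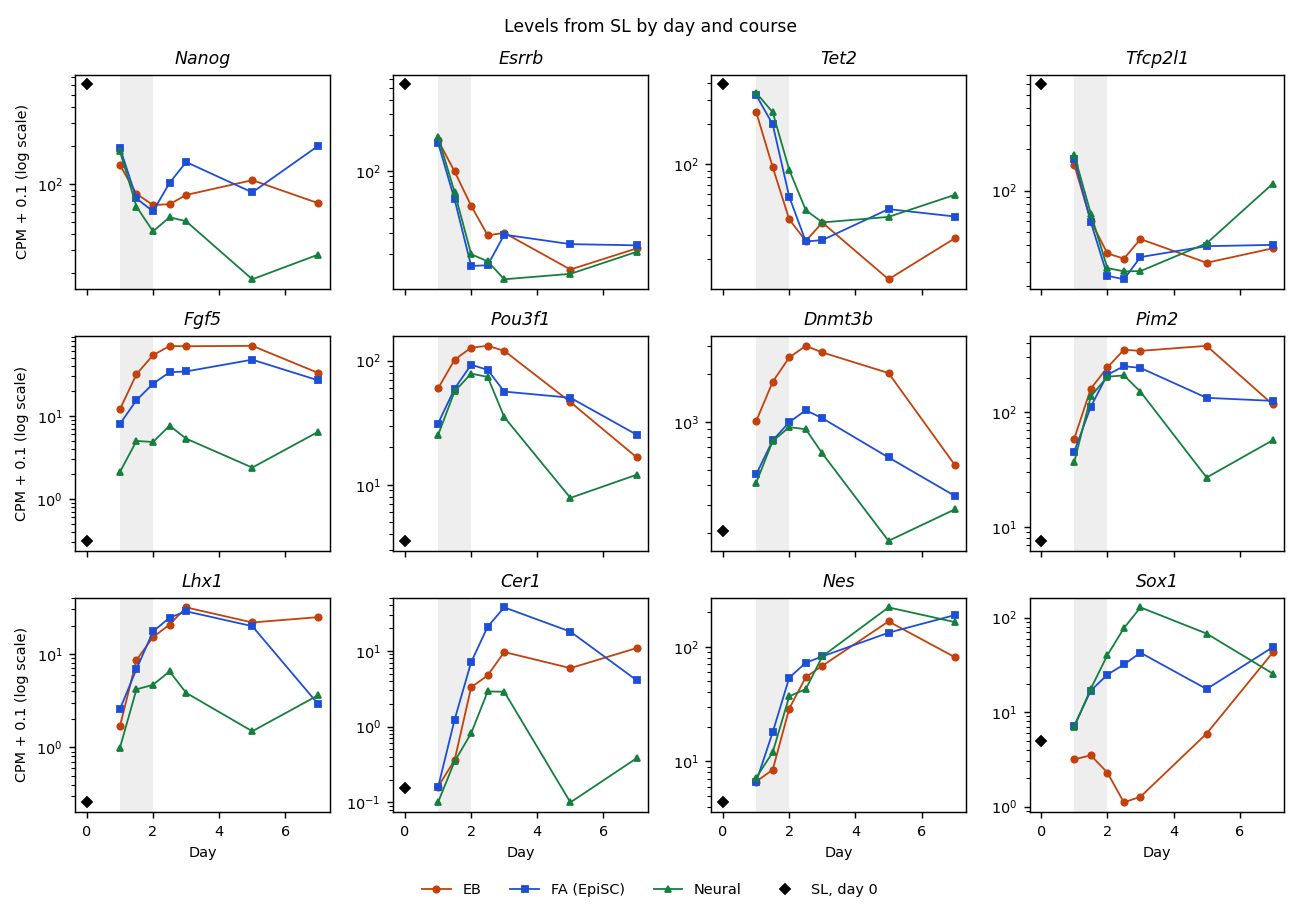
Level of 12 genes in the libraries from SL, as CPM + 0.1 on a log scale against the day, with 1 line per course and a diamond for the 1 library of day 0; the grey band marks day 1 to day 2. The genes in the top row drop through the band (Tfcp2l1 from 154, 170.1 and 182 to 34.6, 23.7 and 27 CPM), Pou3f1, Dnmt3b and Pim2 rise through it, and Sox1 rises in the adherent courses but not in EBs.

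Genes of the primitive streak that rose did so from low levels. Of 13 that passed the filter, of 21 on the list, 7 rose and none fell. The filter keeps a gene that is high on 1 day only, and the 8 members that it removed did not reach it on either day. Fgf8, Mixl1 and Wnt3 were so low at day 1 that they passed it only through day 2, and only a rise could be called. How many other members were as low was not counted, so the 7 rises are not read as a direction of the list. Lhx1, a LIM homeobox factor of the anterior streak and axial mesendoderm, went from 1.59, 2.46 and 0.892 to 15, 17.3 and 4.58 CPM (2.85 ± 0.21 SE, adjusted p = 0.00127). Fgf8, the streak's Fgf ligand, went from 0.245, 0.234 and 0.112 to 2.69, 4.85 and 0.827 CPM, Mixl1 from 0.428, 0.528 and 0.167 to 2.78, 3.52 and 0.882 CPM and Wnt3 from 0.367, 0.469 and 0.334 to 0.827, 5.52 and 2.15 CPM. The Neural course was lowest at day 2 for Lhx1, Fgf8 and Mixl1. Hoxb1, an early collinear Hox gene, rose in the adherent courses only, from 0.245, 1.11 and 1.11 to 0.133, 7.85 and 10.7 CPM (2.71 ± 0.55 SE, adjusted p = 0.0175). Nkx1-2 went from 0.0612, 0.645 and 0.892 to 0.294, 3.59 and 4.47 CPM. Brachyury (T), which defines the streak, was not called, at 0.306, 1.52 and 1.003 CPM and then at 0.374, 2.06 and 0.496 CPM, and Eomes, at 15.5, 14.5 and 8.92 and then at 36.3, 25.9 and 8.99 CPM, missed the threshold (adjusted p = 0.0579). Of 11 Hox genes tested, 3 rose and none fell, with Hoxb2 at 3.34 and Hoxa5 at 1.33 beside Hoxb1. Leaving out the FA or the Neural pair ended the calls of Wnt3, Hoxb1, Hoxb2 and Hoxa5.

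Of 17 tested genes of the neuroectoderm and of neural progenitors, 6 rose and 2 fell. Nes, the intermediate filament nestin of neural progenitors, rose in every course, from 6.54, 6.51 and 7.08 to 28.7, 53.7 and 36.8 CPM (2.52 ± 0.18 SE, adjusted p = 0.00128). Msi1, the RNA-binding protein Musashi, rose from 2.63, 4.28 and 5.02 to 13.1, 17.4 and 20.8 CPM (2.12 ± 0.13 SE, adjusted p = 0.000961). Olig3 rose most in the Neural library, from 0, 0.469 and 1.003 to 0.0534, 1.73 and 10.9 CPM, and stayed under the 3-count level in EBs. Sox1, the earliest definitive neural marker, missed the threshold over the 3 courses (adjusted p = 0.0791), with 3.06, 7.09 and 6.86 CPM at day 1 and 2.19, 24.7 and 39.9 CPM at day 2. Both adherent courses went up and EBs went down. Pax6, the other classical marker, was not called either, at 4.28, 8.79 and 12.9 and then at 2.64, 3.19 and 14 CPM. The genes that fell were Sox21, from 2.02, 3.69 and 4.79 to 0.534, 0.598 and 2.37 CPM, and the neuronal tubulin gene Tubb3 (-0.53). The FA pair was needed for the call of Sox21.

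Endoderm genes moved in both directions. Of 11 genes of the definitive endoderm, 4 rose (Cer1, Foxa2 at 0.80, the thyrotropin-releasing hormone gene Trh at 1.57 and Cxcr4 at 1.24) and 1, Gata6, fell. Of 20 genes of the extraembryonic endoderm, 4 rose and 2 fell, a share of called members near that of all genes. Apob, the structural apolipoprotein of the visceral endoderm, rose from 83.1, 44.4 and 8.08 to 705, 212 and 53.6 CPM (2.69 ± 0.16 SE, adjusted p = 0.00092), again highest in EBs and lowest in the Neural course. Apoa1 rose from 0.489, 0.528 and 0.167 to 9.29, 2.26 and 0.938 CPM and the endocytic adaptor Dab2 from 183, 132 and 99.2 to 341, 185 and 188 CPM. The master factor Gata6 went the other way, from 44.7, 49.5 and 54.9 to 20.1, 14.8 and 32 CPM (-1.21 ± 0.18 SE, adjusted p = 0.00741), while Gata4 (0.09) and Sox17 (-0.63) were not called. Defining factors of this lineage were thus present at day 1 in all courses, with Gata4 at 18.9, 11.6 and 11.2 CPM. The call of Cxcr4 was lost when either the FA or the Neural pair was left out.

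Markers of other cell types that a culture could hold were counted beside these. Among trophoblast genes, 2 of 10 rose (the keratin genes Krt18 and Krt7) and 2 fell (Tfap2c and Plet1). Their summed level was 74.7 to 96 CPM at day 1 and 81.4 to 159.6 CPM at day 2, and Elf5, Gata3 and Tpbpa did not pass the filter. Among genes of fibroblasts and feeders, 1 of 9 rose (Col1a2, 1.69) and 1 fell (fibronectin, Fn1, -1.02), with a summed level of 460 to 569 CPM and then 287 to 349.8 CPM. Among blood and endothelial genes, 2 of 8 rose (Tal1 and Etv2, both under 3 CPM) and 3 fell (Pecam1, Kdr and Runx1), with a summed level of 72 to 127 CPM and then 34 to 39.1 CPM. Pecam1, an adhesion molecule that nPSCs express too, made up most of the sum at day 1 and fell from 52.1, 103 and 111 to 25.7, 23.5 and 21.2 CPM. The globin genes Hbb-bh1 and Hba-x did not pass the filter. Leaving out the FA or the Neural pair ended the calls of Col1a2, Tal1 and Etv2, leaving out the FA pair ended the calls of Krt7 and Kdr, and leaving out the Neural pair ended the call of Krt18.

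Ligands, inhibitors and receptors of the Nodal pathway did not move together: 5 of 17 rose and 6 fell. Nodal itself fell, from 60.4, 67.5 and 59.1 to 39, 48.4 and 23.2 CPM (-0.81 ± 0.17 SE, adjusted p = 0.0198), and so did Pcsk6, the convertase that cleaves its precursor, from 73.2, 75.5 and 82.9 to 14.9, 20.1 and 25.9 CPM (-1.96 ± 0.13 SE, adjusted p = 0.0011). Its feedback inhibitor Lefty1 rose, from 28.9, 75.9 and 11.5 to 75.5, 377 and 67.9 CPM (2.08 ± 0.23 SE, adjusted p = 0.00307). The FA library, from medium that contains Activin A, had its highest level on each day. Smad3, a signal transducer of the pathway, rose from 11.6, 10.03 and 13.5 to 22.6, 31.3 and 34.5 CPM (1.32 ± 0.14 SE, adjusted p = 0.00312), while Smad2 fell slightly (-0.33).

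Of 13 BMP genes and targets, 3 fell and none rose. The ligand gene Bmp4 fell from 10.5, 5.39 and 7.19 to 2.46, 0.731 and 1.16 CPM (-2.44 ± 0.22 SE, adjusted p = 0.00203) and the target Id3 from 18.1, 6.33 and 7.13 to 11.6, 1.26 and 2.37 CPM. In the Wnt list, 3 of 14 rose and 2 fell, 35.7% against 29.6% of all genes. Notum, the secreted Wnt deacylase, fell from 10.6, 11.8 and 9.31 to 1.36, 1.26 and 1.21 CPM (-3.03 ± 0.17 SE, adjusted p = 0.000855), and the intracellular inhibitor Axin2 fell by a log2 value of -0.77. The Dishevelled-binding inhibitors Nkd2, from 1.65, 1.7 and 1.62 to 6.86, 8.51 and 7.06 CPM, and Nkd1, from 1.22, 1.76 and 1.5 to 4.27, 6.05 and 4.3 CPM, rose, and so did the effector Tcf7 (0.97). Of 17 targets of Fgf and ERK signalling, 1 rose (Il17rd, 0.61) and 4 fell: Spry4 (-0.68), Spred2 (-0.48), Etv4 (-0.72) and Phlda1 (-1.26). This share is near that of all genes. The calls of Id3, Il17rd and Phlda1 were lost when either the FA or the Neural pair was left out, and the call of Tcf7 was lost without the FA pair.

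The genes of the Notch pathway that changed all rose. Of 12 genes, 6 rose and none fell, with a median of 0.83. The receptor Notch3 rose from 57.6, 42.7 and 42.8 to 134, 149 and 82.7 CPM (1.33 ± 0.16 SE, adjusted p = 0.00401) and Notch2 by 0.70. The target Nrarp rose from 2.57, 1.11 and 1.23 to 4.22, 4.99 and 3.86 CPM and the target Hes1 from 4.83, 5.16 and 3.62 to 9.13, 10.6 and 10.2 CPM (1.15 ± 0.17 SE, adjusted p = 0.00722). Dll3, a ligand homologue that acts inside the cell as an inhibitor, rose from 2.2, 1.7 and 1.95 to 5.15, 5.58 and 4.19 CPM, and the ligand Jag2 by 0.87. In the retinoic acid list 3 of 14 rose (Hoxb1, the catabolic enzyme Cyp26a1 at 1.10 and the binding protein Crabp2 at 1.02) and 2 fell, the receptors Rarg (-0.79) and Rara (-0.40). Of 13 immediate early and serum response genes, 2 rose (Srf, 0.51, and Tagln, 1.48) and 2 fell (Cyr61, -0.68, and Actb, -0.27). Leaving out the FA or the Neural pair ended the calls of Nrarp, Crabp2, Srf, Tagln, Cyr61 and Actb, and leaving out the FA pair ended the calls of Hes1, Dll3 and Cyp26a1.

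Many genes of cholesterol synthesis and of glycolysis rose, mostly by small amounts. Of 24 genes of cholesterol synthesis and its control, 14 rose and none fell, by a median of 0.40. Insig1, which retains the sterol sensor Scap in the endoplasmic reticulum, rose from 111, 239 and 259.7 to 176, 358 and 365 CPM (0.58 ± 0.06 SE, adjusted p = 0.00247). On both days EBs, the course in serum, had the lowest level of Insig1, and the rise in EBs started from that lower level. Sc5d (0.73) and Dhcr7 (0.68), late enzymes of the pathway, rose too. The FA pair was needed for the call of Dhcr7.

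In the list of fatty acid synthesis and oxidation, 6 of 15 rose and 5 fell. The genes that rose were the synthetic enzymes Fasn, Acaca, Scd1 and Scd2 and the desaturases Fads1 and Fads2. Fads2 rose from 42.9, 76.6 and 82 to 80.2, 178 and 151 CPM (1.003 ± 0.08 SE, adjusted p = 0.00169). Those that fell included Cpt1a, which admits fatty acids to mitochondrial oxidation (-1.34), Acadm, an oxidation enzyme (-0.63), Pdk4, which restrains pyruvate oxidation (-1.62), Angptl4 (-0.60) and the elongase Elovl6 (-0.54). Cpt1a went from 27.7, 27.3 and 22.7 to 21.9, 10.2 and 3.81 CPM, a call that DESeq2 did not make. The calls of Cpt1a and Pdk4 were lost when either the FA or the Neural pair was left out.

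Of 22 glycolysis genes, 13 rose and 1 fell, with a median of 0.35. The lactate exporters Slc16a1, from 164, 146 and 138 to 301, 291 and 215 CPM (0.84 ± 0.08 SE, adjusted p = 0.0023), and Slc16a3 (0.76), and lactate dehydrogenase Ldha, from 834, 453 and 386 to 1360, 819 and 696 CPM (0.80 ± 0.06 SE, adjusted p = 0.00144), were among the largest rises. Triosephosphate isomerase Tpi1 rose from 366, 225 and 215 to 554, 406 and 392 CPM. The 1 that fell, Pfkp, encodes the platelet form of phosphofructokinase, and went from 148, 109 and 100.2 to 90.4, 44.8 and 41.2 CPM (-1.08 ± 0.13 SE, adjusted p = 0.00366), while the liver form Pfkl rose by 0.61. Of 15 hypoxia response genes, 2 rose (the oxygen sensor Egln1, 0.85, and Higd1a, 0.29) and 1 fell (the demethylase Kdm3a, -0.97), and Vegfa was not called (0.01). Among 13 genes of the mitochondrial genome, 8 fell and none rose. mt-Nd6 went from 104, 109 and 97.5 to 89.1, 30.6 and 21.1 CPM and mt-Nd1 from 1405, 1910 and 1578 to 1252, 1043 and 853 CPM, so the median change was -0.07 in EBs, -0.84 in FA and -0.74 in the Neural course. The mitochondrial share of all reads was 2.04%, 2.64% and 2.19% at day 1 and 2.15%, 1.48% and 1.26% at day 2, and its part in other results was not tested. Leaving out the FA or the Neural pair ended the calls of Higd1a, mt-Nd6 and mt-Nd1, and leaving out the Neural pair ended the call of Kdm3a.

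Of 21 genes of serine synthesis and targets of the amino acid response factor Atf4, 9 rose, none fell and 12 were not called. Over all genes tested, 15.2% rose and 14.3% fell. Phgdh, the first enzyme of serine synthesis, went from 95.3, 93.5 and 103 to 188, 212 and 195 CPM (1.03 ± 0.07 SE, adjusted p = 0.00104) and Psat1, the second, from 111, 198 and 224 to 210, 359 and 348 CPM (0.80 ± 0.07 SE, adjusted p = 0.00188). Slc7a11, the cystine transporter, rose from 0.917, 1.52 and 0.836 to 3.42, 3.92 and 5.63 CPM, Ddit4, an mTORC1 inhibitor, from 6.61, 7.33 and 8.25 to 24.2, 20.9 and 24.7 CPM, and Chac1, a glutathione-degrading enzyme, from 2.63, 6.39 and 7.19 to 5.31, 21.8 and 18.1 CPM. Other targets did not pass the test, among them Asns, asparagine synthetase, at 206, 252 and 266 CPM and then at 115, 208 and 230.3 CPM (-0.44 ± 0.13 SE, adjusted p = 0.0522), and Trib3 (0.37). RefSeq promoter windows of 250 bases before the transcription start (GRCm38.p6, the first window listed for a gene) were matched for 19 of the 21 genes. Atf4 is known to bind with C/EBP factors to elements of the form TGATGNAA. These letters, on either strand, were found in 5 of the 19 windows (Slc7a11, Chac1, Nupr1, Asns and Atf3). They were found in 199 of the 10250 windows matched to all genes tested (1.94%). Those 10250 windows cover 72.3% of the genes tested. The list was drawn up for the Atf4 response, so the 2 counts are not a test and nothing is read from their difference. Of the 5, Slc7a11 and Chac1 rose and the other 3 were not called. The windows of Slc7a11, Chac1 and Asns are shown 5′ to 3′ on the strand of the gene, with each match in capitals, because they set 2 risen members beside 1 that did not rise.
Slc7a11 (chr3:50443614-50443863, minus strand): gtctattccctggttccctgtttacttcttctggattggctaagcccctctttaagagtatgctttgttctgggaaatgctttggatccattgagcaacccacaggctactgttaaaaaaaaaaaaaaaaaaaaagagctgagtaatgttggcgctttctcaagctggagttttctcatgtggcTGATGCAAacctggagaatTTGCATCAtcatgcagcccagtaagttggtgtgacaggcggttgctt
Chac1 (chr2:119350992-119351241, plus strand): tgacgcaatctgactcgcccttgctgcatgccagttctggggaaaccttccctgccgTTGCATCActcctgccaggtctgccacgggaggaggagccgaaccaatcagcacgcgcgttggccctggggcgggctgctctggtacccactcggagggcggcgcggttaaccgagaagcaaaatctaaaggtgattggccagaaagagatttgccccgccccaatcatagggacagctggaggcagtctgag
Asns (chr6:7693210-7693459, minus strand): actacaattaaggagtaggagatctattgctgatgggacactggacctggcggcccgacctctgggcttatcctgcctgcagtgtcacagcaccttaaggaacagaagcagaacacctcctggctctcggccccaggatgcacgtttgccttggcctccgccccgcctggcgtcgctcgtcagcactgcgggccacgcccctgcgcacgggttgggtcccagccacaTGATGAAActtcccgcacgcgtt
Slc7a11 carried 2 matches, TGATGCAA and TTGCATCA, which begin 66 and 47 bases before the start, Chac1 carried TTGCATCA 193 bases before it and Asns TGATGAAA 23 bases before it. A match of letters is a description of the window and not a site shown to be bound.

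Among chromatin regulators, 11 of 25 Polycomb genes fell and 3 rose. Those that fell included core and accessory subunits of PRC2, which methylates lysine 27 of histone H3. Jarid2 went from 588, 660.5 and 645 to 302, 314 and 299 CPM (-1.05 ± 0.06 SE, adjusted p = 0.000855), Mtf2 from 422, 440.4 and 427 to 250.2, 235 and 226 CPM (-0.86 ± 0.06 SE, adjusted p = 0.00121) and Phf19 from 5.93, 8.15 and 10.9 to 2.51, 2.13 and 3.53 CPM. Suz12 (-0.75) and Eed (-0.69), core subunits, fell as well, while the catalytic subunit gene Ezh2 was not called (-0.11, adjusted p = 0.261). The 3 members that rose are subunits of PRC1, the complex that ubiquitinates histone H2A: Yaf2, from 5.5, 6.62 and 4.79 to 11, 18.4 and 14.6 CPM, Cbx2 (0.66) and Pcgf6 (0.25). Other PRC1 subunits fell, among them Rybp (-0.65) and Rnf2 (-0.25). Of 15 germline genes, 7 fell and 1 rose. Dazl, a germ cell RNA-binding protein, fell from 37.5, 62.5 and 61.6 to 12.9, 21.6 and 22.7 CPM (-1.50 ± 0.08 SE, adjusted p = 0.00069) and Stk31 from 17.4, 20.1 and 20.4 to 8.22, 9.51 and 10.9 CPM, whereas the piRNA pathway gene Tdrd1 rose from 2.2, 4.4 and 3.12 to 6.72, 10.6 and 8.16 CPM (1.41 ± 0.16 SE, adjusted p = 0.0034). Asz1 fell by -2.17 from a level below 1 CPM.

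Of 23 imprinted genes tested, 10 rose and none fell, with a median of 0.46. The 3 noncoding RNAs of the Dlk1-Dio3 domain rose together: Rian from 236, 146 and 170.5 to 393, 303 and 429.6 CPM (1.04 ± 0.12 SE, adjusted p = 0.00331), Meg3 from 51.6, 29.5 and 39.2 to 87, 56.3 and 94.4 CPM and Mirg by 0.58. Dlk1, the protein-coding gene of the same domain that is expressed from the other parental allele, rose from 0.367, 0.293 and 0.78 to 1.71, 2.33 and 1.82 CPM. Grb10, an adaptor that restrains growth signalling, rose from 172, 174 and 162 to 282, 457 and 491 CPM (1.24 ± 0.17 SE, adjusted p = 0.00568), less in EBs than in the adherent courses. H19 (0.25) and Igf2 (0.51) were not called. Total counts do not show which allele was expressed. In the Lin28 and let-7 list 5 of 14 rose and none fell, led by Lin28b (0.89), Lin28a (0.65) and the let-7 targets Igf2bp3 (0.59) and Hmga1 (0.57). None of the 13 tested genes of the two-cell-like state was called. Leaving out the FA pair ended the call of Dlk1.

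The X inactivation centre, which the study set out to follow, held 3 genes that rose and 1 that fell among 7 tested. Xist was not called, at 4.65, 2.05 and 1.67 CPM and then at 3.23, 2.79 and 3.97 CPM (0.33 ± 0.37 SE, adjusted p = 0.542), and its courses overlapped between the days. With another assay, the study reported a transient rise of Xist during differentiation, less apparent in cells from SL. A comparison of day 1 with day 2 can miss a rise that is over by day 2. The missing call therefore does not decide whether Xist rose in between. Tsix, its antisense partner, was counted by strand and fell from 6.36, 5.39 and 4.57 to 3.79, 2.26 and 2.7 CPM (-0.90 ± 0.19 SE, adjusted p = 0.0207). Ftx, a noncoding gene upstream of Xist, rose from 9.79, 5.92 and 7.53 to 26.4, 10.8 and 9.76 CPM (0.91 ± 0.21 SE, adjusted p = 0.0265), and Rlim (Rnf12), the E3 ligase that acts on the Xist repressor Rex1, from 401, 331 and 294 to 707, 438 and 390.5 CPM (0.55 ± 0.10 SE, adjusted p = 0.0116). Tsx stood at 4.28, 2.52 and 3.57 and then at 4.51, 2.79 and 2.76 CPM and was not called, and Jpx did not pass the filter. Of the X-linked genes assayed in the study by other means, 2 of 5 rose (Rlim and Wbp5, 0.46) and 1 fell: C77370, from 125, 65 and 69.8 to 71.2, 22.3 and 26.9 CPM (-1.23 ± 0.15 SE, adjusted p = 0.00395). Over the X chromosome 113 of 533 genes rose and 71 fell, with a median of 0.03 against 0.004 over all genes. The FA and the Neural pairs were both needed for the call of Tsix, and the FA pair was needed for the calls of Ftx, Rlim and Wbp5.

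Genes of stress, growth and adhesion made up the remaining lists. Of 17 p53 targets 7 rose and 2 fell. The proapoptotic gene Pmaip1 (Noxa) rose from 41.9, 35.5 and 25.8 to 64.4, 62 and 61.8 CPM (0.89 ± 0.13 SE, adjusted p = 0.00744) and Bbc3 (Puma) by 0.66, while Mdm2 was not called (-0.02). Of 19 genes of the G1 phase 3 rose and 3 fell. Mycl rose from 15.4, 9.85 and 8.36 to 46.7, 30.7 and 35.4 CPM (1.77 ± 0.12 SE, adjusted p = 0.00121), the cyclins Ccnd2 (-0.90) and Ccnd3 (-0.80) fell, and Myc was not called (-0.07). Among cadherins and genes of the epithelial to mesenchymal transition 6 of 17 rose and 2 fell. N-cadherin, Cdh2, rose from 13.6, 9.62 and 8.75 to 19.2, 29.1 and 25.8 CPM (1.21 ± 0.24 SE, adjusted p = 0.0161), whereas E-cadherin, Cdh1, was not called (0.03, adjusted p = 0.923). The epithelial genes Cldn6 (1.30) and Esrp1 (1.29), a splicing factor, rose in all courses, as did the mesenchymal repressor Zeb2 (1.28). In the matrix list 2 of 15 rose (Lama5, 0.66, and Col5a2, 0.79) and 3 fell, the basement membrane genes Nid1, from 94.8, 83.4 and 106 to 29.4, 22.8 and 38 CPM (-1.67 ± 0.09 SE, adjusted p = 0.000855), Nid2 (-0.78) and Hspg2 (-0.50). The calls of Bbc3, Ccnd2, Cdh2, Zeb2 and Col5a2 were lost when either the FA or the Neural pair was left out.

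Of 10 tested genes of the MHC and interferon list, 7 rose and 2 fell. H2-K1, a classical class I gene, rose from 5.93, 10.9 and 11.6 to 20.6, 46.7 and 42.5 CPM (1.93 ± 0.10 SE, adjusted p = 0.00069), together with the peptide transporter Tap1 (1.24) and the immunoproteasome subunit Psmb9 (1.47). The interferon target Oas1a fell (-1.88). H2-M5, a nonclassical class I gene on no list, was among the 12 largest falls, from 24.7, 28.6 and 30.6 to 2.002, 2.33 and 2.92 CPM. The alpha protocadherins, 14 of 15 of which rose, share their constant exons, and several had identical counts, so they were read as 1 unit. Pcdha9 went from 0, 0.117 and 0.167 to 0.721, 2.46 and 0.717 CPM, and had no more than 3 counts in any day 1 library. The filter keeps a gene that is high on 1 day only. A gene as low as Pcdha9 at day 1 could therefore pass it only through day 2, and only a rise could be called. How many of the other members were as low was not counted, so the count of 14 rises is not read as a direction of the list. Of 83 genes of cytosolic ribosomal proteins 25 rose and 3 fell, with a median of 0.16. Among those that fell were the intronless testis paralogue Rpl10l, from 30.4, 35 and 33.4 to 11.1, 15.8 and 16.6 CPM (-1.21 ± 0.11 SE, adjusted p = 0.00227), and Rpl39l (-0.63), also a paralogue, and reads shared with the parent genes make both uncertain. Leaving out the FA or the Neural pair ended the calls of Psmb9 and Rpl39l, and leaving out the FA pair ended the calls of Oas1a and Pcdha9.

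Cells that started from 2iL went through the same days, and their change was compared with that from SL by the interaction of medium and day in a fit of 12 libraries. The interaction was called for 60 of 14792 genes, 0.406%, of which 22 were higher and 38 lower from SL (2063 genes had an unadjusted p under 0.05). Of the 2162 genes that rose from SL, 2077 had a fitted rise from 2iL and 1487 were called higher there, against 17.9% of all genes tested. Of the 2032 that fell, 1943 had a fitted fall and 1400 were called lower, against 17.2% of all genes tested. Only 14 genes in each direction were called the opposite way from 2iL. The median over the naive list was -1.98 from SL and -1.95 from 2iL, and 1 of its 26 genes had a called interaction. It was Jam2, which fell from 75.5, 127 and 98 to 2.94, 3.97 and 3.29 CPM from 2iL, a larger fall than that from SL (interaction 1.28 ± 0.12 SE, adjusted p = 0.0253).

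The 6 genes named for a smaller rise from SL were already high there: in each course their level at day 1 from SL was above their level at day 2 from 2iL. Cubn, the cubilin receptor of the visceral endoderm and kidney, stood at 1229, 632 and 544 CPM and then at 1492, 643 and 774 CPM from SL, and at 3.26, 1.46 and 4.36 CPM and then at 190.3, 107 and 59.6 CPM from 2iL (interaction -4.92 ± 0.50 SE, adjusted p = 0.0253). Dab2, the adaptor of the same receptor, went from 1.34, 0.635 and 1.89 to 51.2, 31.4 and 16.9 CPM from 2iL, with an interaction of -3.86 ± 0.45 SE (adjusted p = 0.0253), and was below its SL level in every course on both days. Amot, an angiomotin that binds Yap, went from 297, 179.8 and 74 to 549.9, 382 and 172 CPM from SL and from 7.04, 1.78 and 1.89 to 84.7, 118 and 66.2 CPM from 2iL (interaction -3.57 ± 0.47 SE, adjusted p = 0.032). The Wnt inhibitor Dkk1 stood at 22.1, 17.4 and 9.09 and then at 14.3, 18.8 and 13.5 CPM from SL, and at 0.305, 0.381 and 0.0968 and then at 3.42, 8.6 and 2.39 CPM from 2iL. AA986860 behaved likewise, with an interaction of -3.68 ± 0.37 SE. Tfec, a factor of the Mitf family, had no read in the 3 libraries of day 1 from 2iL, so that its rise there is a lower bound, at least 12.7-fold in EBs, 11.1-fold in FA and 4.44-fold in the Neural course against 3 counts per library. From SL it stood at 12, 6.57 and 5.13 and then at 13.8, 7.45 and 5.74 CPM. Of the 20 genes of the extraembryonic endoderm list, 5 had a called interaction, and the median change of the list was 0.17 from SL and 1.93 from 2iL.

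The other direction held smaller differences. Crxos, a homeobox gene of nPSCs, fell from 1.83, 2.4 and 3.57 to 0.534, 0.731 and 1.43 CPM from SL and from 8.71, 16 and 11.5 to 0.618, 1.26 and 0.581 CPM from 2iL (interaction 2.31 ± 0.31 SE, adjusted p = 0.032). Brsk2, a kinase of neuronal polarity, rose from 0.856, 1.11 and 1.34 to 4.75, 5.52 and 6.62 CPM from SL and stood at 7.71, 7.997 and 6.92 and then at 8.32, 12.1 and 12.3 CPM from 2iL (interaction 1.85 ± 0.26 SE). She, Ddah1, Mlxipl and Rab11fip5 had interactions between 1.66 and 2.08, with log2 fold changes from 2iL of -1.53, -2.31, -1.14 and -1.32. She, for example, stood at 1.9, 2.64 and 2.51 and then at 2.002, 4.39 and 4.36 CPM from SL, and at 5.76, 15.4 and 13.4 and then at 2.29, 5.83 and 3.68 CPM from 2iL. From SL alone, the calls of Crxos and Mlxipl from day 1 to day 2 were lost without the FA or without the Neural pair. The number of interactions rested on single pairs: 815 without the EB pairs, none without the FA pairs and 2 without the Neural pairs, and 1 without the block.

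**Figure D4:**
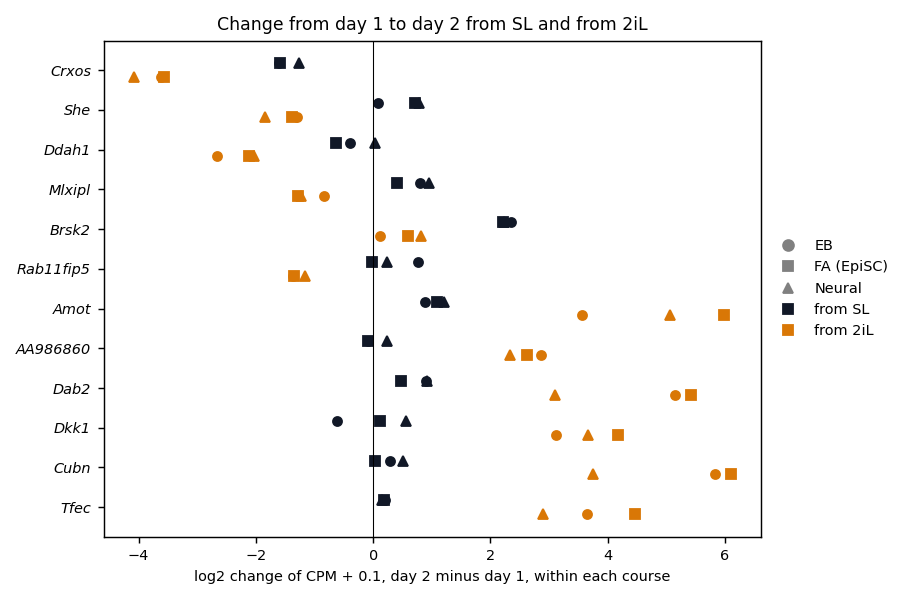
Change from day 1 to day 2 within each course, as the log2 difference of CPM + 0.1, for the 12 genes named for their interaction of medium and day, from SL (black) and from 2iL (orange), with 1 mark per course. The marks of the 6 upper genes lie further to the left from 2iL and those of the 6 lower genes further to the right, with no overlap between the media, as for Cubn at 0.28, 0.02 and 0.51 from SL against 5.82, 6.10 and 3.74 from 2iL.

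Last, the 3 courses from SL were compared with one another, with the day 1, day 1.5 and day 2 libraries fitted as a slope in log2 units per day. The slope of EBs differed from the mean slope of the adherent courses for 552 of 14453 genes, 3.82%, of which 253 were higher and 299 lower in EBs. These p-values rest on 1 EB culture set against 2 others, and their error is the departure of the 3 days from a straight line within single cultures. The split depended on the fit: DESeq2 called 162 higher and 272 lower, and with day 2.5 in the fit 172 were higher and 439 lower, with 315 of the 552 genes shared. FA and the Neural course differed for 0 genes in edgeR (440 at an unadjusted p under 0.05) and for 6 in DESeq2. Gbx2, a homeobox factor of naive cells and later of the hindbrain, fell in EBs and rose in the adherent courses, from 27.6, 45.4 and 37 CPM at day 1 through 13.7, 72 and 68.5 CPM at day 1.5 to 5.28, 94.7 and 122 CPM at day 2 (slope difference -3.76 ± 0.17 SE, adjusted p = 3.17e-06). Zfp352, a gene of the two-cell-like state, did the same, from 5.63, 5.92 and 7.25 to 1.09, 13.6 and 12.1 CPM (-3.27 ± 0.47 SE, adjusted p = 0.0037), as did Gm10696 (-3.26) and the chromosome 2 genes Gm13694, Gm13696 and Gm13697 (-3.03, -3.07 and -3.03). The last 3 had nearly equal levels in each library, at 32.8, 53.6 and 47.7, 34.7, 54.2 and 49.3 and 33.3, 54.3 and 49.4 CPM in turn at day 1, so their reads may be shared and they were read as 1 unit. The median over the 13 tested genes of the two-cell-like list split in this way, at -1.80 in EBs, 0.31 in FA and 0.38 in the Neural course. Each of these changes sets 1 library against 1, and the median counts near-identical copies as separate members. Zscan4c, for example, stood at 255, 418 and 375 CPM and then at 73.8, 571 and 527 CPM. The Zscan4 genes are near-identical copies and their single values are uncertain.

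The genes named for a higher slope in EBs either rose more there or fell only in the adherent courses. Afp, described above, rose most in EBs (3.92 ± 0.63 SE, adjusted p = 0.00651). The X-linked kinase gene Nrk went from 5.93, 8.5 and 6.58 to 32.2, 8.31 and 6.89 CPM (2.43 ± 0.23 SE, adjusted p = 0.000529) and the epithelial mucin gene Muc13 from 7.77, 9.44 and 3.68 to 25.5, 7.31 and 1.32 CPM (2.61 ± 0.29 SE, adjusted p = 0.000897). Cd37, a tetraspanin, and Aqp3, an aquaglyceroporin, were low in EBs on both days and fell to that level in the adherent courses, Cd37 from 1.04, 15.9 and 17.7 to 1.15, 1.2 and 0.938 CPM (4.07 ± 0.44 SE, adjusted p = 0.000752) and Aqp3 from 2.57, 19.6 and 36.5 to 2.75, 1.6 and 2.7 CPM (3.67 ± 0.56 SE). The call of Cd37 from day 1 to day 2 over the 3 courses was lost without the FA or without the Neural pair. With day 2.5 in the fit, the slope differences of Afp (1.99, adjusted p = 0.0812) and Muc13 (1.37, adjusted p = 0.0691) were not called. The EB library of day 2 was the deepest, and with its counts thinned to the depth of day 1 the slope difference was called for 500 genes, 469 of them among the 552, with Gbx2 at -3.63 and Afp at 3.94. EBs differ from the adherent courses in serum and in suspension culture, and these cannot be told apart.

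**Figure D5:**
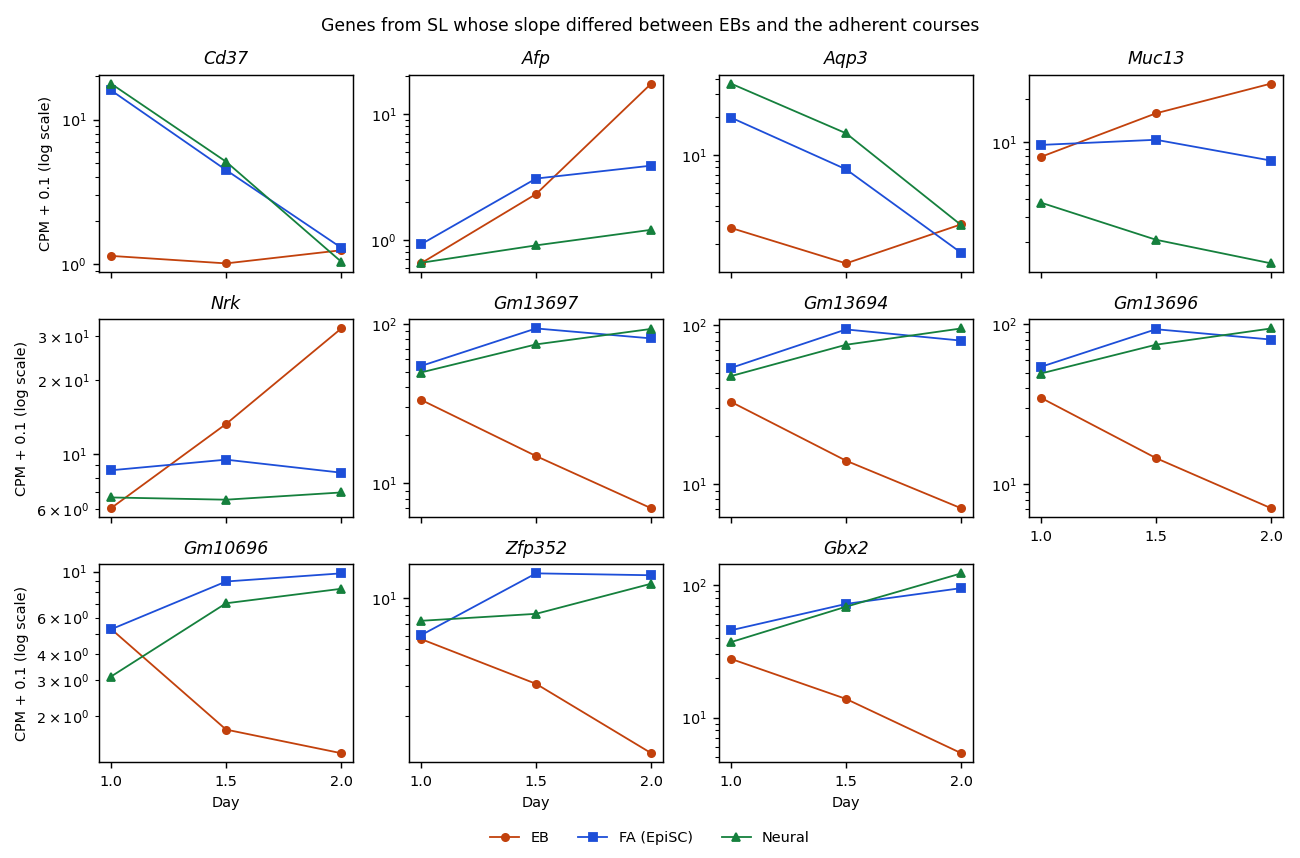
Level of the 11 genes named for a difference in slope between EBs and the adherent courses, as CPM + 0.1 on a log scale at days 1, 1.5 and 2, with 1 line per course and 1 library per point. The first 5 panels have a higher slope in EBs and the last 6 a lower one; Gbx2 ends at 5.28 CPM in EBs against 94.7 and 122 CPM in the adherent courses.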

How the data were processed

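Total RNA was depleted of ribosomal RNA and sequenced from strand-specific libraries. The authors trimmed the reads, aligned them with TopHat2 to GRCm38 (mm10) allowing 1 mismatch, with the Ensembl release 82 annotation, and assigned them to genes by strand with featureCounts. The deposited values are these raw counts, and the authors' DESeq2-normalised values were not used here.

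The 6 SL libraries of days 1 and 2 were grouped by their titles. edgeR 4.0.16 (R 4.3.3) fitted ~ course + day with TMM factors after filterByExpr (minimum count 10), which left 14183 of 35372 genes, and glmQLFTest p-values were adjusted by Benjamini-Hochberg over all of them. CPM used TMM factors over all 45 libraries, with 0.1 CPM added for changes within a course. The interaction used 12 libraries and the slopes 9. The scripts were tested on simulated data. The course block pairs the libraries by culture course: the correlation of deviations from the day means was 0.563 for EB, 0.474 for FA and 0.520 for Neural. No 2 libraries agreed within sampling noise.

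The genes named were the 12 largest rises and falls at 5 CPM or more, up to 4 called members of each list at 1 CPM or more, 14 genes named in the study, and the 6 largest differences in each direction. Some genes that met this rule are not reported here. Other members named, 5 lists (X-linked, alpha protocadherin, Hox, mitochondrial and ribosomal genes) and the genes of the time course plot were chosen after their values were seen. The members and the 37 other lists were chosen with earlier results of these data known. Alternatives were DESeq2 1.42.0, RLE factors, no filter, no block, other sets of libraries, each course left out, and thinning of deep libraries, which was chosen after seeing the data. Promoter motifs of the naive and cholesterol lists, and CpG content, were void because 61.5%, 66.7% and 72.3% of genes had a window. The Esrrb half-site was found in 0 of 16 naive windows and the sterol regulatory element in 1 of 16 cholesterol windows. The Atf4 element was set against the same 72.3% of genes tested, and its counts are a description only.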

Additional observations from a re-analysis of the deposited data

Results flagged for a closer look

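The change from day 1 to day 2 differed between SL and 2iL for 60 genes by the interaction of medium and day. Among those named, the change was higher from SL for Crxos (2.31), She (2.08), Ddah1 (1.98), Mlxipl (1.87), Brsk2 (1.85) and Rab11fip5 (1.66), as the log2 change from SL minus that from 2iL. It was lower from SL for Tfec (-7.56), Cubn (-4.92), Dkk1 (-4.02), Dab2 (-3.86), AA986860 (-3.68) and Amot (-3.57). The fitted value of Tfec depends on the prior count, since its day 1 libraries from 2iL held no read. Cubn and Dab2 are known as partners in endocytosis in the visceral endoderm, and both were high from SL on both days.

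The slope from day 1 to day 2 differed between EBs and the adherent courses from SL for 552 genes. In log2 units per day, EBs minus the mean of the other courses, the named genes with a higher slope in EBs were Cd37 (4.07), Afp (3.92), Aqp3 (3.67), Muc13 (2.61) and Nrk (2.43). Those with a lower slope were Gbx2 (-3.76), Zfp352 (-3.27), Gm10696 (-3.26), Gm13696 (-3.07), Gm13694 (-3.03) and Gm13697 (-3.03). Each slope rests on 3 libraries per course, and the course cannot be told apart from its serum and its culture in suspension.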

How the results depend on the processing

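The count of genes changed from day 1 to day 2 from SL (4194) was 2188 with no replicate block and ranged from 1157 to 6476 when 1 course was left out. The lowest count came without the FA pair and the highest without the EB pair, and the cause was not tested. DESeq2 called 3375, of which 3277 were among the 4194, and RLE factors 4208. The 60 differences between SL and 2iL became 327 with DESeq2, 171 with no filter on low counts, 1 with no replicate block, and 0 to 815 with 1 course left out. The 552 slope differences of EBs (253 higher, 299 lower) became 1284 with no filter (665 higher, 619 lower) and 611 with day 2.5 in the fit (172 higher, 439 lower), and the 0 between FA and Neural became 6 with DESeq2, 48 with no filter and 12 with day 2.5 in the fit.

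The genes that changed sign were not called in the fit of all 3 courses. Without the EB pair, Gm13694, Gm13696, Gm13697 and Muc13 were called with the opposite sign, at 0.78, 0.75, 0.74 and -0.72, and the other sign changes were not called. DESeq2 gave 0.012 for Dkk1, -0.051 for Muc13 and -0.027 for Zfp352, no filter gave 0.00087 for Dkk1, and no replicate block gave 0.43 for Gm13694, 0.39 for Gm13696 and 0.39 for Gm13697. All SL libraries in the fit gave -0.013 for AA986860, -0.38 for Gm10696 and -0.34 for Zfp352. With 1 course left out, values ranged from -0.092 to 0.066 for AA986860, from -0.26 to 0.32 for Dkk1, from -0.55 to 1.39 for Gbx2, from -0.48 to 1.15 for Gm10696, from -0.76 to 0.78 for Gm13694, from -0.80 to 0.75 for Gm13696, from -0.78 to 0.74 for Gm13697, from -0.72 to 0.73 for Muc13, from -0.14 to 0.11 for Tsx, from -0.091 to 0.86 for Xist and from -0.67 to 0.96 for Zfp352. The fit had 2 residual degrees of freedom and 1 library per course and day.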
